A study of Mus musculus with 15 samples.

Results

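The 4 mouse Id genes, Id1, Id2, Id3 and Id4, were followed through the conversion of pre-B cells into macrophage-like cells, by the histone marks at their starts and in the 100 kb on each side. They were chosen by name, as all members of the family, and make up 4 of the 22350 protein-coding gene starts of the annotation used. The cells were C10, a derivative of HAFTL (a pre-B cell line of the mouse), which carries the transcription factor C/EBPα fused to the hormone-binding part of the estrogen receptor and marked with GFP. β-estradiol switched the fusion protein on, IL-3 and CSF-1 were in the medium, and control cells received the solvent ethanol. H3K4Me1, H3K27Ac and H3K27Me3, were mapped by ChIP-seq (sequencing of DNA pulled down with an antibody to the mark) at 0, 3, 12, 24 and 48 h post-induction (hpi), which gave 15 libraries with 1 for each mark and time. All groups share the cell line and the fusion protein. With 1 library in each group there is no replicate check and no test: every interval below is a 95% interval for counting error only, and every change compares a pair of libraries.

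Id proteins have a helix-loop-helix domain without the basic region that contacts DNA. They pair with E proteins (the products of Tcf3, Tcf4 and Tcf12) and so keep them from DNA, and since E proteins drive the early B cell program, Id proteins are known as brakes on it. H3K4Me1 marks enhancers, poised ones included, H3K27Ac marks active enhancers and active starts, and H3K27Me3 is the mark of Polycomb repression.

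Libraries of a mark were brought to equal depth by random thinning, which left 10.9 M tags in each H3K4Me1 library, 15.2 M in each H3K27Ac library and 15.3 M in each H3K27Me3 library. The value given for a start is the number of these tags in the 3 kb centred on it. A change is the log2 ratio of tags after adding 5 to both counts, and it was called when it reached 2-fold with at least 10 tags in the higher library. A window was called enriched when its tags passed a Poisson upper tail of 0.001 over the genome mean, which took 27 tags in the case of H3K4Me1 and 34 tags in the case of H3K27Ac or H3K27Me3. As a check of the cells, 6 of the 7 B lineage markers lost H3K27Ac at their starts by 48 hpi (summed tags 8675 against 3040). With the scaling by constantly enriched bins described below, 4 of 7 did. All 6 macrophage markers gained H3K27Ac (258 against 2569). Of 12330 protein-coding starts with a mean of at least 10 H3K27Ac tags, 13.9% lost the mark and 7.74% gained it by the same rule. The starts of 5 T lineage markers summed to 53 and 42 tags, of 3 fibroblast markers to 36 and 66 (Pdgfrb alone 18 and 42), of 4 erythroid markers to 139 and 112, and of 4 neutrophil markers to 35 and 77 (Elane alone 16 and 61). Their part in the results below was not tested. In a bulk culture, a change in the share of cells with a mark and a change in the level per cell cannot be told apart.

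The genes lie on 4 chromosomes of build mm9. Id1 (ENSMUSG00000042745.9) spans chr2:152561987-152563146 on the plus strand. Id2 (ENSMUSG00000020644.8) spans chr12:25778666-25780957 on the minus strand. Id3 (ENSMUSG00000007872.3) spans chr4:135699412-135701670 and Id4 (ENSMUSG00000021379.1) spans chr13:48356796-48359405, both on the plus strand. Between 99.0% and 100% of the 36-base stretches in their 4 start windows were unique in the genome, so nearly all tags there could be placed. Within 100 kb, Id1 has the protein-coding starts of H13, Mcts2, Cox4i2 and Bcl2l1, and Id3 has those of Rpl11, E2f2 and Asap3, whereas Id2 and Id4 have none.

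The promoters are shown because the members differed in the marks at their starts, with Id2 and Id3 acetylated and Id4 not. Promoters of Id2, Id3 and Id4, 3 of the 4 genes, were matched in the RefSeq table used here (assembly GRCm38.p6), each 250 bases before to 50 after its start, and all 3 were found once on their chromosome in mm9. The RefSeq start is that used for counting at Id2, lies 325 bp downstream of it at Id3, and lies upstream of it at Id4 (an offset of -311 bp). Capitals mark the E box, CANNTG on either strand, which is the sequence that E proteins bind.
Id2 promoter, chr12:25780908-25781207, minus strand: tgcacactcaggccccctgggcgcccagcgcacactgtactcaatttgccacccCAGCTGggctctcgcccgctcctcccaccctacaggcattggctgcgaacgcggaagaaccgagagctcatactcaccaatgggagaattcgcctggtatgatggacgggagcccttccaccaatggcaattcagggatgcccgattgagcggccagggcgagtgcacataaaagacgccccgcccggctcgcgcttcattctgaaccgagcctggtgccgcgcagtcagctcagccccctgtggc
Id3 promoter, chr4:135699487-135699786, plus strand: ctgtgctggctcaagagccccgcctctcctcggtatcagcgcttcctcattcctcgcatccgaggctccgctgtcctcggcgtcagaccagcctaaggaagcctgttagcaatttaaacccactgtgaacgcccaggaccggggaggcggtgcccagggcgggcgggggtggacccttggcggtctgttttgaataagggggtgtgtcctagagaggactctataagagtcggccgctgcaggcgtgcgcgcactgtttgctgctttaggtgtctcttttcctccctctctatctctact
Id4 promoter, chr13:48356235-48356534, plus strand: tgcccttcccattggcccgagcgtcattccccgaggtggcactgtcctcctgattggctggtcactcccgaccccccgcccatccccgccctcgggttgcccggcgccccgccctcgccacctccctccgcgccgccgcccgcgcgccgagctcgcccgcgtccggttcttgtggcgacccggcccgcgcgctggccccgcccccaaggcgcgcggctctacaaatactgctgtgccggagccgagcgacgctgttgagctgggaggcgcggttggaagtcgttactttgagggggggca

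The Id2 promoter held 1 E box and those of Id3 and Id4 held 0, while 72.3% of 32841 RefSeq promoters of this length held at least 1. The Id2 E box had the form CAGNTG, which 51.4% of promoters held. No promoter of the 3 held the C/EBP letters TTGCNNAA, which 10.8% of promoters held. The PU.1 letters GAGGAA were found 3 times in the Id3 promoter and 0 times in the others, against 28.3% of promoters with a match. The EGR letters GCGNGGGCG were found 2 times in the Id4 promoter, against 5.55% of promoters, and the letters GGCGCC of BMP-responsive elements were found once each in the Id2 and Id4 promoters, against 11.9%. GC content was 63.3% for Id2, 60.0% for Id3 and 73.3% for Id4, with 21, 19 and 39 CpG dinucleotides, against medians of 52.7% and 7 over all promoters. Each search covered both strands, CAGNTG matches are also CANNTG matches, and a match is a string of letters and not a measured binding site.

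At 0 hpi the family split into marked and unmarked members. The starts of Id1, Id2 and Id3 were enriched in H3K27Ac and H3K4Me1, as were 46.3% and 45% of all protein-coding starts, and the start of Id4 was not. Id3 was the most acetylated, with 324 H3K27Ac tags in its 3 kb (interval 290 to 361), Id2 had 156 (132 to 182), Id1 had 52 (38.8 to 68.2) and Id4 had 1 (0.0253 to 5.57). The 4 intervals did not overlap, so this order was larger than counting error. For H3K4Me1 the counts were 146 at Id3, 116 at Id1, 65 at Id2 and 1 at Id4, and the intervals of Id3 (123 to 172) and Id1 (95.9 to 139) overlapped. Id1 therefore started with much H3K4Me1 and little H3K27Ac, at 8.65 and 2.78 times the genome mean of a 3 kb window. H3K27Me3 passed the enrichment threshold at 0 hpi for Id1 (44 tags) and Id3 (49 tags), as it did at 16.3% of all starts, but not for Id2 (21 tags) or Id4 (3 tags).

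**Figure D1:**
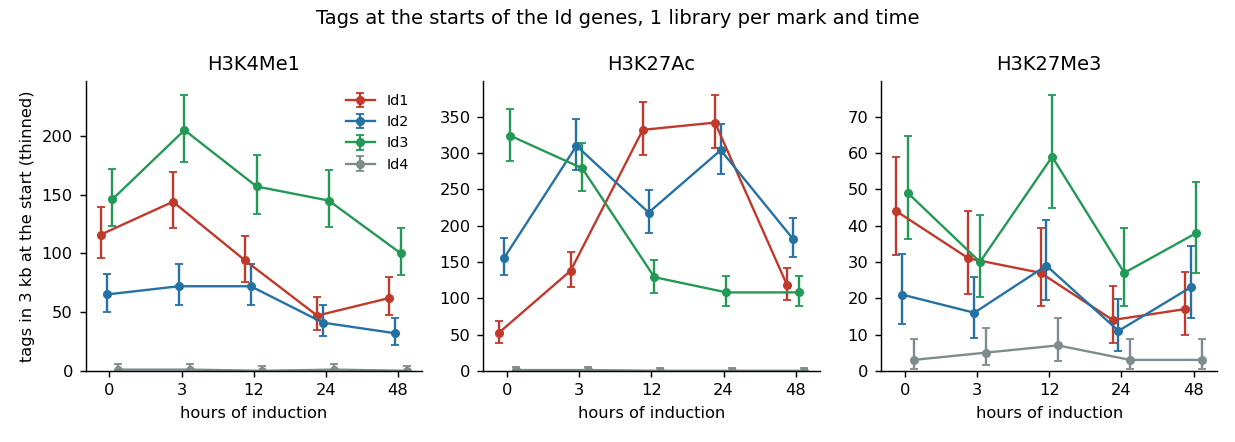
Tags in the 3 kb at the start of each Id gene against time after induction, with 1 panel per mark, points for single libraries joined by gene, times spaced evenly and bars for 95% Poisson intervals. In H3K27Ac, Id1 climbs from 52 to 342 tags by 24 hpi and is at 118 at 48 hpi, Id3 goes from 324 to 108, Id2 moves between 156 and 310, and Id4 stays at 0 or 1.

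Id1 gained H3K27Ac early and kept part of the gain. The 5 libraries gave 52, 138, 332, 342 and 118 tags at 0, 3, 12, 24 and 48 hpi. The counts at 12 and 24 hpi were the high ones, their intervals overlapped each other, and they overlapped none of the other 3. Against 0 hpi the log2 changes were 1.33 (interval of the ratio 0.94 to 1.90), 2.56 (2.25 to 3.13), 2.61 (2.29 to 3.17) and 1.11 (0.70 to 1.68). All 4 passed the 2-fold rule. Of the 12330 starts with a mean of at least 10 H3K27Ac tags over the 5 times, the shares called higher at these times were 3.97%, 5.98%, 8.11% and 7.74%. The shares of starts with a rise at least as large as that of Id1 were 1.98%, 1.02%, 1.76% and 6.63%. From 24 to 48 hpi the Id1 count went from 342 to 118, or 0.345 times. Id1 thus met the rule for a passing rise, at least 2-fold above both 0 and 48 hpi at some time between, which 1.93% of the tested starts met. Id2, Id3 and Id4 did not meet it, but with scaling by background bins Id2 did, with the 24 to 48 hpi change at -1.36. The size of these changes depends on how libraries are put on 1 scale. Scaling by bins that were enriched at all 5 times raised the median change of all starts at 48 hpi from -0.21 to 0.20, and scaling by background bins raised it at 24 hpi from 0.00 to 0.56. Relative to the median start, Id1 was higher by 1.20, 2.60, 2.60 and 1.32 at the 4 times. These values are the same under each of these scalings, but they take the median start as unchanged.

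**Figure D2:**
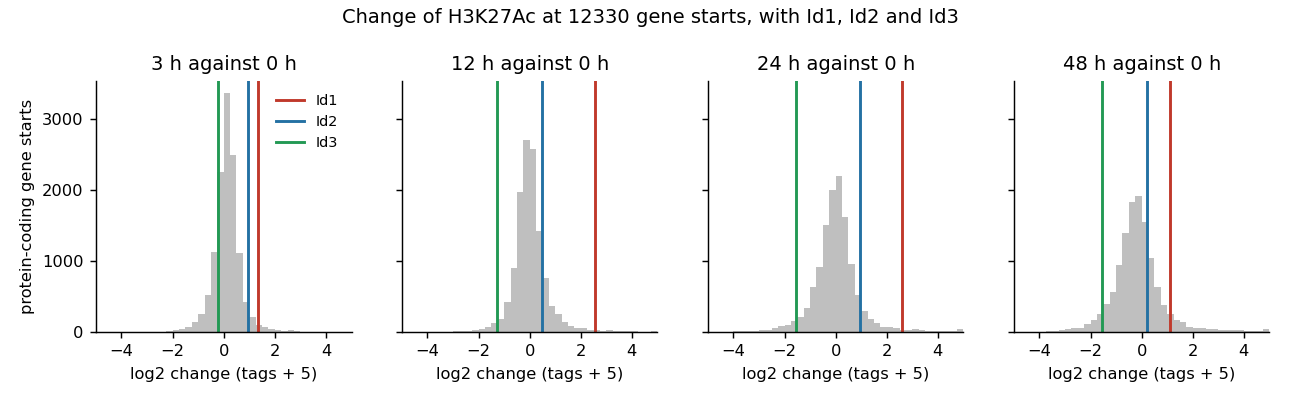
Histograms of the log2 change in H3K27Ac tags (tags plus 5, bins of 0.25) at 12330 protein-coding gene starts, 1 panel for each time against 0 hpi, with vertical lines at Id1, Id2 and Id3. Id1 lies in the upper tail at all 4 times, Id3 reaches the lower tail from 12 hpi on, and Id2 lies between the middle and the upper tail.

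The other marks at the Id1 start did not follow the acetylation. H3K4Me1 gave 116, 144, 94, 47 and 62 tags, so the lowest counts were at 24 and 48 hpi. The change at 48 hpi was -0.85 (-1.37 to -0.45), which missed the 2-fold rule, and -0.30 with scaling by background bins, and at 24 hpi it was -1.22 (-1.82 to -0.80). The 24 hpi change was under 2-fold with scaling by background bins (-0.58) and in windows of 2 kb (-0.98) and 6 kb (-0.66). H3K27Me3 gave 44, 31, 27, 14 and 17 tags. In the 3 kb at the start it was enriched at 0 hpi only among these 5 libraries. In bins of 5 kb, an enriched stretch of 20 kb covered the start at 0 and 3 hpi. At 12, 24 and 48 hpi no enriched bin touched the 3 kb at the start, but the mark stayed upstream. The windows from 15 to 3 kb upstream had 30, 73, 24, 32 and 50 tags at 0 hpi. At 48 hpi they had 47, 82, 33, 42 and 63. The change of the 3 kb count at 48 hpi, -1.16 (-2.27 to -0.54), passed the rule, as 1.69% of 13403 starts did in that direction and 1.26% in the other. The call was lost in a second random thinning (-0.90) and, narrowly, with all tags kept or tags as deposited (both -0.997). The H3K27Me3 counts were at most 2.41 times the genome mean, so this is a small number of tags.

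The gain at Id1 took in the bases past the end of the gene, where the tag counts were higher than at the start. The window centred 3 kb downstream, which holds no annotated gene, went from 131 H3K27Ac tags at 0 hpi to 273, 768, 891 and 325. The window at 6 kb gave 64, 230, 606, 639 and 416 tags. In steps of 500 bp the highest count at 24 hpi was 205 tags, 4.25 kb downstream of the start, where 0 hpi had 9. The stretch of enriched bins over the start covered 7, 13 and 8 kb at 0, 12 and 48 hpi, and reached to 7.01, 11.0 and 7.01 kb downstream. In the same 3 kb window downstream, H3K27Me3 went from 37 tags at 0 hpi to 9 at 48 hpi, the largest H3K27Me3 loss in the Id1 flanks. H3K4Me1 gave 174, 274, 247, 133 and 131 tags in that window and 118, 183, 272, 224 and 178 at 6 kb, neither passing the rule at 48 hpi. Farther on, the windows at 9 and 12 kb gained H3K4Me1, from 27 to 68 tags and from 16 to 43. The windows at 6, 9 and 12 kb were not among those named by rule (most tags, largest rise or largest fall). The 300 bases of the window at 3 kb with the most H3K27Ac tags over the 5 libraries are shown. They were picked by number of tags and not by gain.
Id1 +3 kb, chr2:152565157-152565456, plus strand: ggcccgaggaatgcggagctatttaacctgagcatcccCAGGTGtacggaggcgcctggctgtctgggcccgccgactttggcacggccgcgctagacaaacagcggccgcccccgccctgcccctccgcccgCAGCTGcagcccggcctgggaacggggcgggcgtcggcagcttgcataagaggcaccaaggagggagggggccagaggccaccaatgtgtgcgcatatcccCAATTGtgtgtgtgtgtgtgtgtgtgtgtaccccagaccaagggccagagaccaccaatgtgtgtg
These bases had 45, 50, 119, 118 and 50 tags at the 5 times. Their count at 48 hpi was thus near that at 0 hpi, while the whole window went from 131 to 325. They held 3 E boxes, 1 match each to TTGCNNAA, GAGGAA, GCGNGGGCG and GGCGCC, and 20 CpG dinucleotides. Among 85193 stretches of 300 bases, taken 1 in each 30 kb of the genome, 80.0% held an E box, 13.8% TTGCNNAA, 26.2% GAGGAA, 0.134% GCGNGGGCG and 0.898% GGCGCC, with a median of 2 CpG. These genome stretches are not matched for base composition: their median GC content was 41.7%, against 66.0% in the bases shown. Among RefSeq promoters, with a median of 52.7%, 5.55% held GCGNGGGCG and 11.9% GGCGCC.

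**Figure D3:**
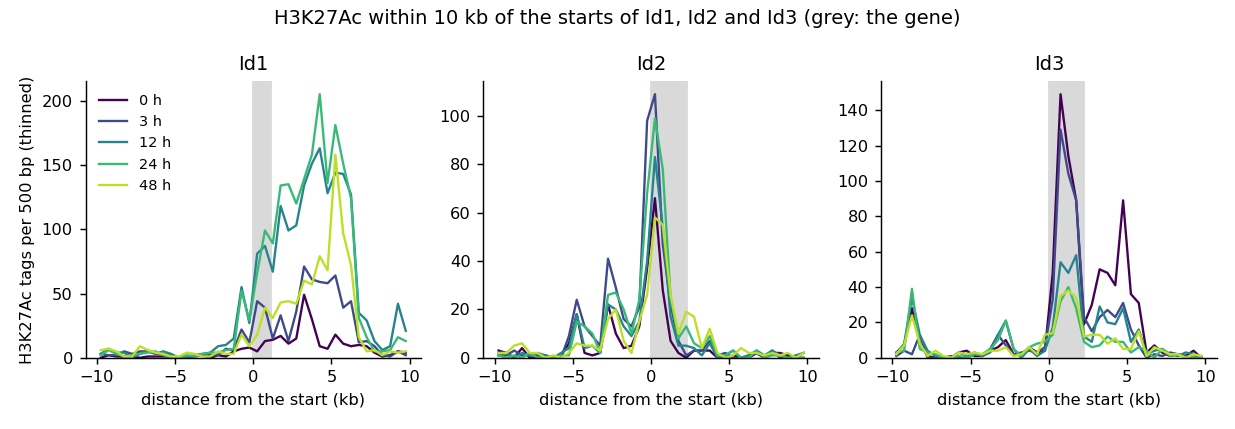
H3K27Ac tags per 500 bp within 10 kb of the starts of Id1, Id2 and Id3, with 1 line per time and the gene in grey, read from 5' to 3' of each gene. At Id1 the 12 and 24 hpi lines stand highest downstream of the gene, at Id2 the peak sits on the start in every library, and at Id3 both the peak inside the gene and the shoulder that reaches 89 tags 4.75 kb downstream are highest at 0 hpi.

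Id2 stayed acetylated throughout, and its H3K27Ac changes against 0 hpi lay just under the 2-fold rule or well inside it. H3K27Ac gave 156, 310, 218, 304 and 182 tags, so that 3 and 24 hpi were the high libraries and their intervals (276 to 347 and 271 to 340) did not overlap those of the other 3 times. The change at 3 hpi was 0.97 (0.71 to 1.28), just under 2-fold, and 4.15% of starts rose at least as much. With scaling by bins enriched at all 5 times it was 1.10, and in a window of 6 kb 1.03. With scaling by background bins it was 0.68, below the counting interval, and in a window of 2 kb 0.91. At 24 hpi it was 0.94 (0.68 to 1.25), and it passed 2-fold with scaling by background bins, in a window of 6 kb (1.02) and, narrowly, in a second random thinning. At 48 hpi it was 0.22 with an interval of -0.09 to 0.54 that spans 0. It was 0.45 in a window of 6 kb, and 0.63 with scaling by bins enriched at all 5 times, above that interval. Relative to the median start, Id2 was higher by 0.84 at 3 hpi and by 0.43 at 48 hpi. H3K4Me1 at Id2 gave 65, 72, 72, 41 and 32 tags, with a change of -0.92 at 48 hpi (-1.68 to -0.39) that also missed the rule, though in a window of 2 kb it was -1.04. H3K27Me3 gave 21, 16, 29, 11 and 23 tags and the 3 kb at the start were enriched in none of the 5 libraries, although 11 tags at 24 hpi were over 2-fold below the 29 at 12 hpi. Next to it the mark was present: the window 3 kb upstream had 50 H3K27Me3 tags at 0 hpi and 35 at 48 hpi. In bins of 5 kb, an enriched stretch from upstream reached 0.956 kb past the Id2 start at 0, 3 and 12 hpi and 11.0 kb past it at 48 hpi. At 24 hpi no enriched bin touched the 3 kb at the start, though the window 3 kb upstream had 38 tags.

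Id3 moved the other way. H3K27Ac gave 324, 279, 129, 108 and 108 tags, with 0 and 3 hpi high and the last 3 times low, and the 2 sets of intervals did not overlap. The changes at the 4 later times were -0.21 (-0.45 to 0.02), -1.30 (-1.63 to -1.03), -1.54 (-1.91 to -1.27) and -1.54 (-1.91 to -1.27). The last 3 passed the rule. The shares of all tested starts called lower were 2.54%, 4.14%, 8.48% and 13.9% in the same order. At 48 hpi 5.47% of starts fell at least as much. At 24 hpi, scaling by background bins gave -0.98. H3K4Me1 at Id3 gave 146, 205, 157, 145 and 100 tags, and its change of -0.52 at 48 hpi (-0.93 to -0.17) became 0.028 with scaling by background bins. In the background, 8.82% of 13033 starts lost H3K4Me1 at 48 hpi and 5.19% gained it. H3K27Me3 gave 49, 30, 59, 27 and 38 tags, without an order in time. At 48 hpi its change was -0.33 (-1.02 to 0.27), but -1.14 in a window of 2 kb, past the rule. The H3K27Ac peak lay inside the Id3 gene and had a shoulder downstream: 4.75 kb from the start, the 500 bp count was 89 tags at first, 31 after 3 h and 5 after 48 h. The enriched stretch over the start was 7 kb long at 0 hpi and 4 kb at 48 hpi, and its downstream end went from 6.59 to 3.59 kb.

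The Id4 start was enriched in none of the 3 marks at any time. Its start gave 1, 1, 0, 0 and 0 H3K27Ac tags, 1, 1, 0, 1 and 0 H3K4Me1 tags and 3, 5, 7, 3 and 3 H3K27Me3 tags. Id4 was the only member whose mean stayed under 10 tags in each mark, so it was left out of the counts of changed starts, and no fold is given. The interval of a count of 0 reaches up to 3.69 tags. Over its 66 flanking windows, H3K27Ac was 0.133 times the genome mean at 0 hpi and 0.0738 times at 48 hpi, H3K4Me1 0.168 and 0.0644 times, and H3K27Me3 0.441 and 0.347 times, and no window was enriched in any of the 15 libraries. The median window of this locus had 97.8% unique 36-base stretches. H3K27Me3 at Id4 was thus below the genome mean as well. The Id4 promoter had 73.3% GC, and whether DNA of this start was recovered as well as that of other starts was not tested.

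The flanks differed between the 4 loci. In the 264 flanking windows of 3 kb, 35 gained H3K27Ac between 0 and 48 hpi and 20 lost it, or 13.3% and 7.58%, against 6.69% and 3.31% of 831452 windows of the genome. For H3K4Me1, 27 windows gained and 30 lost, against 5.12% and 5.25% of the genome. For H3K27Me3, 7 gained and 9 lost, against 1.07% and 2.02% of the genome. Losses outnumbered gains of H3K27Me3 with scaling by bins enriched at all 5 times, and gains outnumbered losses with scaling by background bins. At 0 hpi the Id windows held 3.79 times the genome mean of H3K27Ac tags, so the genome share is not matched for level. With scaling by bins enriched at all 5 times, 59 windows gained H3K27Ac and 12 lost it. With scaling by background bins, 47 gained H3K4Me1 and 9 lost it. The shares of the genome and of all starts were computed without these scalings. No rescaled count, here or for single genes and lists, therefore has a matching share beside it.

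Around Id1, 21 of 66 windows gained H3K27Ac and 6 lost it, and 16 gained H3K4Me1 and 2 lost it. The H3K27Ac counts were 24 and 3 with scaling by bins enriched at all 5 times. Those of H3K4Me1 were 25 and 0 with scaling by background bins. Upstream of the start, 15 windows gained H3K27Ac and 0 lost it. Those 75, 72, 24, 15, 9 and 6 kb upstream had 22, 19, 26, 13, 24 and 24 tags at 48 hpi, under the enrichment threshold of 34. The 9 called windows from 60 to 27 kb upstream overlap H13, the gene of a membrane protease of the signal peptide peptidase family. The largest rise in both marks was 54 kb upstream in H13, where H3K27Ac gave 12, 21, 43, 176 and 202 tags and H3K4Me1 gave 13, 13, 31, 156 and 228. Both were at most 43 tags up to 12 hpi and at least 156 after it, whereas the Id1 start had reached 332 H3K27Ac tags at 12 hpi. The log2 changes at 48 hpi were 3.61 for H3K27Ac (3.24 to 5.05) and 3.69 for H3K4Me1 (3.33 to 5.06). The start of H13 gave between 288 and 405 H3K27Ac tags, with a change of -0.31. Downstream, the 6 windows that lost H3K27Ac all overlapped Bcl2l1, which encodes the survival protein Bcl-xL. The window with the most H3K27Ac was 54 kb downstream, in an intron of Bcl2l1, with 1424, 947, 1073, 1160 and 743 tags. The largest fall was 39 kb downstream, also in an intron of Bcl2l1, with 450, 126, 108, 89 and 52 tags, which puts the log2 ratio of 48 to 0 hpi between -3.56 and -2.70. Most of that difference was present at 3 hpi and lasted, but the 66 flanking windows of Id1 together also had fewer tags then, with 11338, 7584 and 10048 at 0, 3 and 12 hpi, and the part of the 3 hpi library in it was not tested. The windows 69, 72 and 75 kb downstream, in the same gene and chosen after their values were seen, went from 355, 126 and 187 tags at 0 hpi to 832, 523 and 488 at 48 hpi. The start of Bcl2l1 gave 465 tags at 0 hpi and 316 at 48 hpi. The sequences under the largest rise and the largest fall beside Id1 are given for comparison.
Id1 -54 kb, chr2:152509187-152509486, plus strand: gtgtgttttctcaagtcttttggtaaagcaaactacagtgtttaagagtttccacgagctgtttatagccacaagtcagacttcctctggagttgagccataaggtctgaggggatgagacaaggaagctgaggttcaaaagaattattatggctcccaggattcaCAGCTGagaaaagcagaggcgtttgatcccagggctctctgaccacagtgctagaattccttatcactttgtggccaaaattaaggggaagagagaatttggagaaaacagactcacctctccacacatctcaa
Id1 +39 kb, chr2:152601477-152601776, plus strand: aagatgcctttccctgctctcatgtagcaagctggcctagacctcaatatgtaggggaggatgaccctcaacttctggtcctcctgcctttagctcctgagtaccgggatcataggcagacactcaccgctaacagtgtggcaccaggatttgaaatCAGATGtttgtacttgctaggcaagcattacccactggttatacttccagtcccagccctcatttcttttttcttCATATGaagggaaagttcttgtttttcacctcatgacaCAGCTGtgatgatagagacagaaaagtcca
The first held 1 E box and 1 match to GAGGAA, and the second held 3 E boxes and no match to GAGGAA. Neither held TTGCNNAA.

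**Figure D4:**
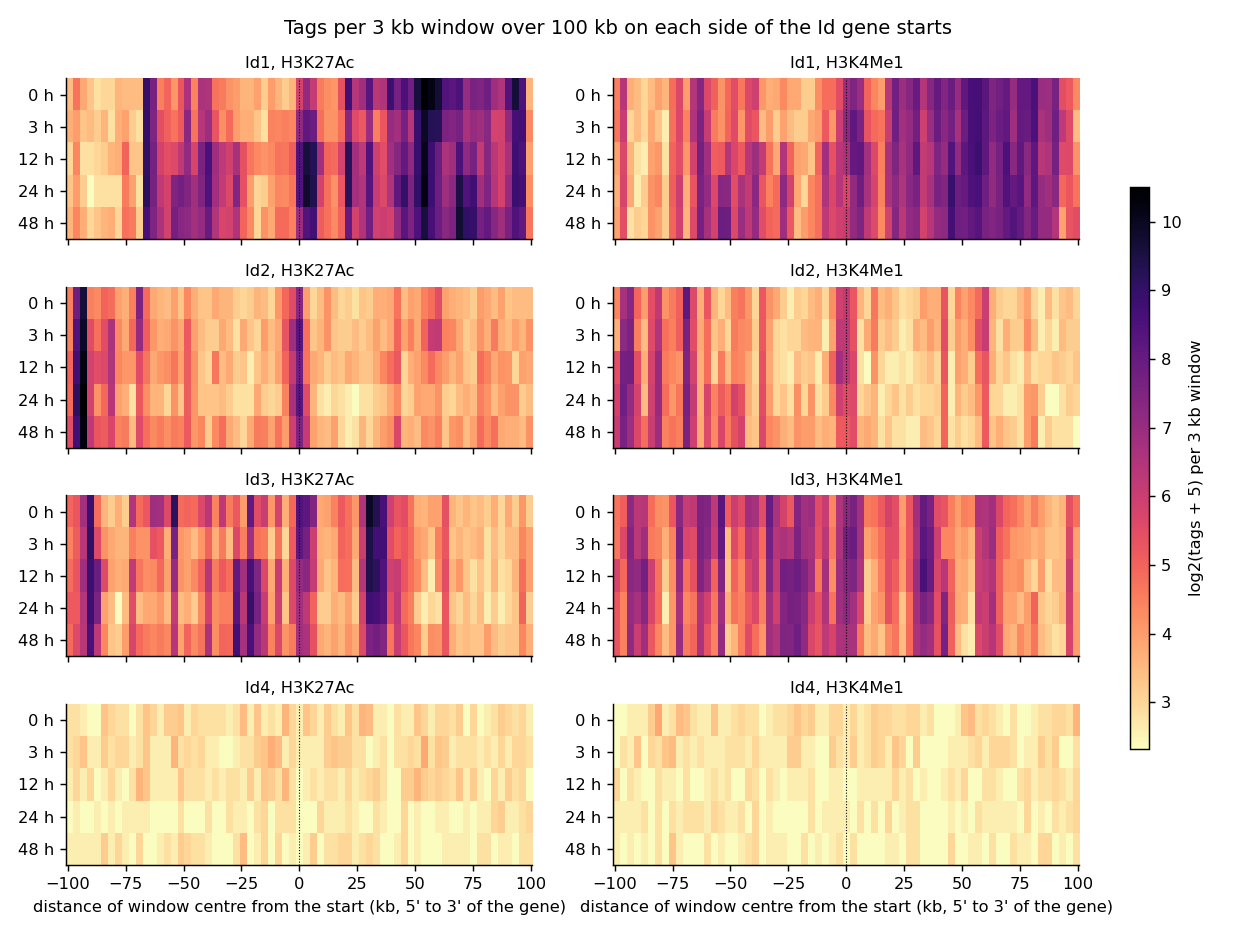
Tags per 3 kb window as log2(tags + 5), in colour, over 100 kb on each side of each Id gene start, with H3K27Ac on the left, H3K4Me1 on the right, 1 row of pixels per time and the start at the dotted line. The band upstream of Id1 darkens from 12 hpi on, Id2 has a dark window 93 kb upstream at all times, Id3 has windows 27 kb upstream that darken and 54 kb upstream that fade, and Id4 is pale throughout.

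Around Id2, 10 of 66 windows gained H3K27Ac and 2 lost it, 7 gained and 5 lost H3K4Me1, and 5 gained and 0 lost H3K27Me3. With scaling by bins enriched at all 5 times, 26 gained H3K27Ac and 0 gained H3K27Me3. With scaling by background bins, 5 gained and 3 lost H3K27Ac, and 15 gained and 0 lost H3K4Me1. The most acetylated window was intergenic, 93 kb upstream, with 777, 955, 1168, 1414 and 1215 tags. It had more H3K27Ac than the Id2 start in every library, and its change at 48 hpi was 0.64 (0.51 to 0.78), or 1.05, past 2-fold, with scaling by bins enriched at all 5 times. The largest fall was 69 kb upstream, also intergenic, with 181, 128, 41, 32 and 42 H3K27Ac tags and a change of -1.98 (-2.63 to -1.62). That window had the most H3K4Me1 near Id2 and went from 283 to 184 tags, so H3K4Me1 was still 184 tags where H3K27Ac was 42. The largest rise was in the window 3 kb downstream, over the end of Id2, with 11, 22, 21, 41 and 64 tags and a change of 2.11 (1.61 to 3.61). The other windows that gained H3K27Ac reached at most 72 tags at 48 hpi. Those 60, 51, 42, 33, 18 and 15 kb upstream had 19, 17, 16, 23, 19 and 18 tags. The window 84 kb downstream had 22, so all of these stayed under the enrichment threshold of 34.
Id2 -69 kb, chr12:25850138-25850437, plus strand: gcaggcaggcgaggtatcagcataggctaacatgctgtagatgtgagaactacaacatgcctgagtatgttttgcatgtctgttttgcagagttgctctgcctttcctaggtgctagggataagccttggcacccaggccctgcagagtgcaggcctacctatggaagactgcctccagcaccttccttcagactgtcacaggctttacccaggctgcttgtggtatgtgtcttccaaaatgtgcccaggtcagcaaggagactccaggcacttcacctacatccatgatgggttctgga
This stretch is shown as the place of the largest H3K27Ac loss near Id2. It had 35, 31, 3, 4 and 6 tags at the 5 times and held 0 E boxes and no match to the C/EBP or PU.1 letters.

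Around Id3, 4 of 66 windows gained H3K27Ac and 12 lost it, or 9 and 8 with scaling by bins enriched at all 5 times. For H3K4Me1, 4 gained and 23 lost it, or 7 and 9 with scaling by background bins. Among the H3K27Ac losses were the windows 3 and 6 kb downstream of Id3, with 277 and 169 H3K27Ac tags at 0 hpi and 91 and 36 at 48 hpi. Both are named because they lie next to the gene, and not by the rule for single windows. The most acetylated window, 30 kb downstream, holds the start of E2f2, which encodes a cell cycle transcription factor. It gave 966, 688, 671, 427 and 181 tags, a change of -2.38 (-2.65 to -2.19). The windows that lost H3K27Ac near Id3 thus include 4 over the neighbouring gene E2f2. The largest fall was intergenic, 54 kb upstream, with 569, 196, 125, 65 and 79 H3K27Ac tags and a change of -2.77 (-3.21 to -2.51). At 3 hpi it had 196 tags, when the Id3 start still had 279 of its 324. The 66 flanking windows of Id3 together were also low in that library, with 5342, 3639 and 4784 tags at 0, 3 and 12 hpi, and its part in the early drop was not tested. Against this trend, the intergenic window 27 kb upstream gave 32, 45, 269, 311 and 418 H3K27Ac tags, a change of 3.52 (3.19 to 4.27). There H3K4Me1 went from 52 to 173 tags and H3K27Me3 from 36 to 12. The Id3 start lost H3K27Ac over the same hours in which this window gained it. The window 87 kb upstream, chosen after its values were seen, gave 23, 43, 228, 181 and 72 tags, so its high counts were at 12 and 24 hpi.
Id3 -27 kb, chr4:135673272-135673571, plus strand: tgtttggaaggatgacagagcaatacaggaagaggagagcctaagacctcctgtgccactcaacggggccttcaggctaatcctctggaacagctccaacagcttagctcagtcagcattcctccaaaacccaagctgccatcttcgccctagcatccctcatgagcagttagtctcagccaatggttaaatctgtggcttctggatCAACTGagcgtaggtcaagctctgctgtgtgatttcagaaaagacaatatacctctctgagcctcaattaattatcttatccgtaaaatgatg
Id3 -54 kb, chr4:135644732-135645031, plus strand: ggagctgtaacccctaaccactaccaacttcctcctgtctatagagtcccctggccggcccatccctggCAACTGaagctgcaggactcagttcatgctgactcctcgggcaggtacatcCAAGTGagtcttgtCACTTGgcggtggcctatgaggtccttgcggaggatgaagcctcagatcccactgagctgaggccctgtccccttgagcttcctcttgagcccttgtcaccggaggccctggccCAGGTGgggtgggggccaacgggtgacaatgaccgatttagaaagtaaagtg
These stretches mark the largest gain and the largest loss near Id3. The first had 15, 10, 75, 100 and 139 H3K27Ac tags and the second 95, 54, 33, 11 and 13. The first held 1 E box and the second 4, with 1 and 2 matches to GAGGAA and none to TTGCNNAA. Of stretches of this length over the genome, 80.0% held an E box, 26.2% GAGGAA and 13.8% TTGCNNAA. Beside Id2 the order was the reverse, with 3 E boxes in the stretch of the largest rise and 0 in that of the largest fall.

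**Figure D5:**
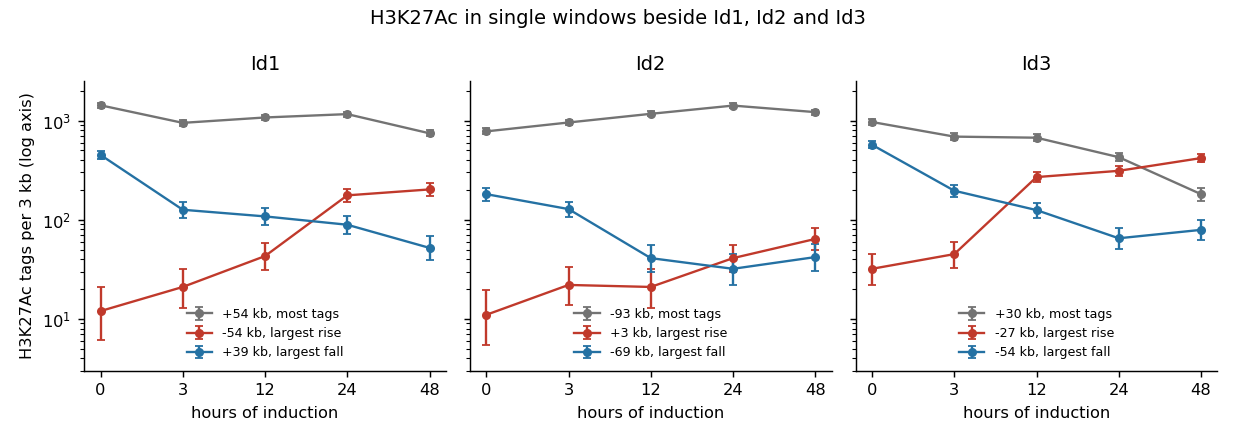
H3K27Ac tags per 3 kb on a log axis against time after induction, in the window with the most tags, the largest rise and the largest fall beside Id1, Id2 and Id3, with 95% Poisson intervals and times spaced evenly. Each panel holds a rising and a falling window because the windows were chosen that way. The rise 27 kb upstream of Id3 from 32 to 418 tags crosses the fall 54 kb upstream from 569 to 79.

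The E proteins that Id proteins bind lost H3K27Ac in part. Tcf3, which encodes E2A, went from 1147 tags at the start to 498 at the end of the series, by -1.20. Tcf4 gave 368 and 150, a change of -1.27, and Tcf12 gave 455 and 442. So 2 of 3 fell, beside 13.9% of all starts tested, and with scaling by bins enriched at all 5 times the changes of Tcf3 and Tcf4 were -0.78 and -0.85, under 2-fold. The E protein corepressor Cbfa2t3 went from 836 to 151 tags, while Cbfa2t2 went from 217 to 163 and Runx1t1 stayed at 4 or fewer. Of 5 basic helix-loop-helix genes that pair with E proteins in blood cells, Tal1 rose from 101 to 250 H3K27Ac tags, beside 7.74% of all starts tested, and Lyl1 fell from 1291 to 526, the latter by -0.87 with that scaling. In H3K4Me1, which rose at 5.19% of all starts tested, Tal2 went from 14 to 44 tags, a change of 1.37 (0.76 to 2.63) that also passed the rule under both other scalings (1.92 with background bins and 1.43 with bins enriched at all 5 times).

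Of 13 B lineage genes that E proteins are known to drive, 12 fell and 0 rose at 48 hpi, with a median change of -1.68 against -0.21 over all starts tested, of which 13.9% fell and 7.74% rose. With scaling by bins enriched at all 5 times 9 fell, without Ebf1 (-0.89), Pou2af1 (-0.65) and Il7r (-0.85). The list shares genes with the B lineage markers. Rag1, a recombinase subunit, gave 198, 47, 25, 21 and 30 tags, so its loss was already present at 3 hpi, and Dntt, the terminal transferase, gave 578, 493, 133, 100 and 72. Vpreb1, part of the surrogate light chain, went from 1017 to 512 with a change of -0.98 and was the member that missed the rule. In H3K4Me1, 0 of the 12 members tested passed the rule at 48 hpi, where 5.19% of all starts tested rose and 8.82% fell, and with scaling by background bins Igll1 passed it (1.36).

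Id genes are known targets of BMP and TGF-β signals, and 9 of 20 genes of that route had enough H3K27Ac to be tested. At 48 hpi, when 7.74% of all starts tested rose and 13.9% fell, 0 rose and 3 fell: Tgfb1, the ligand, from 937 to 441 tags, Eng, a co-receptor, from 1004 to 480, and Smad7, an inhibitor, from 687 to 269. None of these 3 reached 2-fold with scaling by bins enriched at all 5 times (-0.67, -0.64 and -0.92), and Bmpr2 then rose (1.10). At 3 hpi, when 3.97% of all starts tested rose, 2 did: the receptor gene Bmpr2 from 28 to 117 tags, and the inhibitor gene Smad6 from 243 to 519. The Smad6 change of 1.08 was 0.80 with scaling by background bins. Smad6 then gave 157 tags at 48 hpi. The ligand genes Bmp2, Bmp4, Bmp6 and Bmp7 gave at most 9 tags in any H3K27Ac library. Of 10 other regulators of Id genes, 1 rose and 4 fell at 48 hpi, beside the same 7.74% and 13.9% of starts, and with scaling by bins enriched at all 5 times 2 rose and 3 fell, with Egr3 (58 to 116 tags) at 1.35. Nfil3, known to act upstream of Id2 in innate lymphocytes, had 62 tags at first, 459 after 3 h and 534 after 48 h. Notch1 went from 440 to 44, its target Hes1 from 543 to 53, Zeb1 from 227 to 53 and Stat5b from 278 to 135 (-1.02, and -0.60 with that scaling). Egr1 gave 449 and 381 tags and Egr2 gave 93 and 95. In H3K4Me1, when 5.19% of all starts tested rose and 8.82% fell, 0 of these 10 rose and 4 fell at 48 hpi, Egr1, Nfil3 (37 to 11 tags), Zeb1 and Zeb2, and 0 did with scaling by background bins. Tcf3 went from 87 to 38 H3K4Me1 tags, a change of -1.10, or -0.55 with that scaling. In H3K27Me3, 1.26% of all starts tested rose and 1.69% fell at 48 hpi. Of these 6 lists, in the order given, 1, 1, 3, 3, 11 and 7 members were tested, and 0 passed the rule. So few members cannot set this 0 apart from those shares. With scaling by background bins, 1 of the 3 B lineage genes tested and 1 of the 11 genes tested of the BMP and TGF-β route passed it. Bmp7, under the mean of 10 tags and so not tested, went from 16 to 4.

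The genes whose 15 start values lay nearest to those of an Id gene were found by the root mean square difference of log2 tags over the 3 marks and 5 times. For Id1 they were Slc23a2 (0.49), Nucb2 (0.50) and Thsd1 (0.52), and 2 of 22345 genes lay within 0.5. For Id3 they were Angptl4 (0.41), 5330437I02Rik (0.41) and Rapgef3 (0.47), with 4 genes within 0.5. More genes resembled Id2: Ncoa1 (0.28), Psmb7 (0.29) and Klhl26 (0.30) were nearest, and 547 genes lay within 0.5. For Id4 they were Xlr5c (0.12), Rhox3c (0.18) and Serpinb9f (0.18), with 1225 genes within 0.5. Between the members the difference was 0.75 for Id1 and Id2, 1.09 for Id1 and Id3 and 1.09 for Id2 and Id3, all larger than the distance of each to its nearest genes.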

How the data were processed

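The authors aligned Illumina tags to mm9 with Eland or Bowtie, without mismatches, and dropped tags that were identical or not placed uniquely. The aligner of each library is not given in the sources used here. The deposited files hold positions of 36-base tags and no counts, so tags were counted here. Identical tags had been handled in more than 1 way (up to 205 per position in H3K4Me1 at 0 hpi, 1 in H3K27Me3 at 0 and 48 hpi), and 1 tag per position was kept. In 3 files, 2 closing lines were dropped. Tags on chromosomes 1 to 19 and X, placed 18 bp from their start, (10913733 to 31541879 positions per library) were thinned to the smallest library of each mark. Starts were the 5' ends of gene records (GENCODE vM1, the same build).

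Counts have exact Poisson intervals and ratios exact conditional binomial intervals. These were computed with scipy 1.17.1, numpy 2.4.6 and pandas 2.3.3, and the calling rule was tested on simulated data. Where no tags or very few were counted, the pseudocount of 5 holds changes near 0. The Poisson enrichment threshold used the mean of bins with a tag in any library, in bins of 1 kb (5 kb for H3K27Me3). Bins with at most 1 gap were joined.

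Named beside the Id genes and the gene lists were genes starting within 100 kb, the 3 genes most like each member (start over 100 kb away), and per flank and mark the windows with the most tags, the largest rise and the largest fall. Some other windows are named outside this rule. The Id genes, lists and rules were chosen with earlier results of these data known. Windows of 2 and 6 kb, a pseudocount of 1, unthinned and undeduplicated tags, a second thinning, both other scalings, other thresholds and a shifted grid were tried. The other assays of the study were not analysed here.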

Additional observations from a re-analysis of the deposited data

How the results depend on the processing

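No paired analysis was possible because every group held a single library. Of 408 values recomputed under 15 settings, 355 stayed within the counting interval of the value reported (or within 1.5 times the count), 53 moved outside it and 0 of the called values changed sign. A pseudocount of 1, a second thinning, tags as deposited and no tag minimum moved none of theirs outside it, although values near 2-fold changed sides: the H3K27Me3 loss at Id1 at 48 hpi was -0.90 in the second thinning and -0.997 with tags as deposited, and H3K27Ac at Id2 at 24 hpi just passed 2-fold in the second thinning. The cause was not tested for the others, beyond what each setting changes by its construction.

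Scaling by background bins gave 0.68 for H3K27Ac at Id2 at 3 hpi, and for H3K4Me1 at 48 hpi -0.30 at Id1, -0.37 at Id2 and 0.028 at Id3. Scaling by bins enriched at all 5 times gave, for H3K27Ac at 48 hpi, 0.63 at Id2 and -1.13 at Id3. At the farthest transcript start of Id3, H3K4Me1 changed by -1.06 at 48 hpi, and in a window of 2 kb H3K27Me3 at Id3 changed by -1.14.

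The counts of flanking windows over the 4 genes followed the fold asked for. At 1.5-fold, 60 windows were higher and 38 lower in H3K27Ac, 42 and 54 in H3K4Me1, and 25 and 25 in H3K27Me3. At 3-fold they were 14 and 9, 10 and 9, and 0 and 1. Shares of the genome were computed for the main 2-fold rule only, so the window counts in this paragraph have no matching share. Scaling by bins enriched at all 5 times gave 59 higher and 12 lower in H3K27Ac and 1 and 14 in H3K27Me3. Scaling by background bins gave 47 higher and 9 lower in H3K4Me1 and 11 and 4 in H3K27Me3. The few H3K27Me3 windows also moved under other settings: 4 and 5 with a minimum of 20 tags, 2 and 5 with all tags kept, and 5 lower with the grid shifted. Without the filter on mean tags, 284 and 367 starts were called higher and lower in H3K27Me3, against 169 and 226. With 10.9 to 15.3 M tags, windows near the 10-tag minimum cannot show changes much below 2-fold.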
